A study of Monodelphis domestica and Mus musculus with 2 samples.

Results

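Cells with the label Endo, for endothelial, were examined in visual cortex of 2 species. They were taken from the deposited cell labels as the cells of the primary visual cortex (V1) regions that passed the authors' filter and had the subclass Endo, and they numbered 65 of 4806 such cells in the gray short-tailed opossum, Monodelphis domestica, and 255 of 9127 in the mouse. The whole libraries held 80369 and 120239 segmented cells. Stereo-seq, in which RNA is counted by unique molecular identifiers (UMIs) at known places on a patterned chip, gave 1 library per species from 10 µm of a frozen block of coronal slices, taken in the opossum from 1 adult male of about 6 months and in the mouse from 1 wild-type C57BL/6J male at about postnatal day 40, both without treatment. RNA integrity was 7.1 in the opossum block and above 9 in the mouse block. Segmented areas were called cells and received class and subclass labels from their nearest neighbors in a single-nucleus RNA-seq atlas of the same species. Because each species was 1 animal, no test between conditions was possible and species cannot be told apart from animal, block or RNA quality. Values below are compared with exact 95% intervals, which cover counting error only, and with the spread over the V1 regions (3 in the opossum, 4 in the mouse), which came from 1 animal and are not biological replicates. The 2 libraries shared 0 cell identifiers.

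Endothelial cells line the blood vessels. In the brain they are joined by tight junctions, carry few vesicles and express transporters that bring glucose and amino acids to the tissue and pump drugs back to the blood, which together make the blood-brain barrier. Pericytes sit on the same capillaries inside a shared basement membrane, Wnt ligands from the neural tissue keep the barrier program on, and vascular endothelial growth factor (VEGF), angiopoietin and Notch signals shape the vessels. In a section of segmented areas a capillary is a thin profile between much larger cell bodies, so a segmented area can also hold RNA of the cells around it.

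In the mouse the Endo cells carried more RNA of endothelial genes than other cells did, although at low counts. A list of 40 genes of endothelial identity summed to 714 UMIs in the 255 Endo cells, a level of 23.3 UMIs per 10000 UMIs (95% interval 21.7 to 25.1), against 8.78 in the 1661 other cells of nonneuronal class, a 2.66-fold difference (2.44 to 2.90). The fold was 2.93, 1.84, 2.25 and 3.31 in regions 1 to 4. In the opossum, where 23 of the 40 genes had a feature under their symbol, the 65 Endo cells held 66 UMIs of the list, 9.71 UMIs per 10000 (7.51 to 12.4), against 6.31 in 663 other nonneuronal cells, a 1.54-fold difference (1.17 to 1.99). The opossum fold was 1.12, 1.83 and 2.00 in regions 1 to 3, and its interval reached 1 without region 2 (1.35, 0.905 to 1.95) and with cells thinned to 300 UMIs (1.06, 0.565 to 1.84). Levels of the list were not compared between species, since the lists did not hold the same genes.

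The classes given to the Endo cells differed between the species. In the mouse 212 of 255 Endo cells had the nonneuronal class (83.1%, 78.0 to 87.5), 40 the glutamatergic class and 3 the GABAergic class. In the opossum only 14 of 65 had the nonneuronal class (21.5%, 12.3 to 33.5), 50 had the glutamatergic class and 1 the GABAergic class. The nonneuronal share was 25%, 20.8% and 15.4% in the 3 opossum regions and 87.9%, 75%, 80.6% and 82.0% in the 4 mouse regions, so the regions of the species did not overlap. Among opossum subclasses the nonneuronal class was given to 72.5% of astrocytes (Astro), 53.1% of microglia (Micro), 40.7% of oligodendrocytes (OD) and 29.0% of oligodendrocyte precursors (OPC), each a larger share than in Endo. In the mouse these shares were 96.0%, 82.7%, 81.8% and 69.0%. A lower nonneuronal share in the opossum was thus not particular to Endo. Labels were assigned in 3 rounds of falling stringency, with the subclass agreed on by all 50 neighbors in round 1, 75% in round 2 and 50% in round 3. No opossum Endo cell was labelled in round 1 (0 of 65), 32 were labelled in round 2 and 33 in round 3, while the mouse had 58, 54 and 143.

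**Figure D1:**
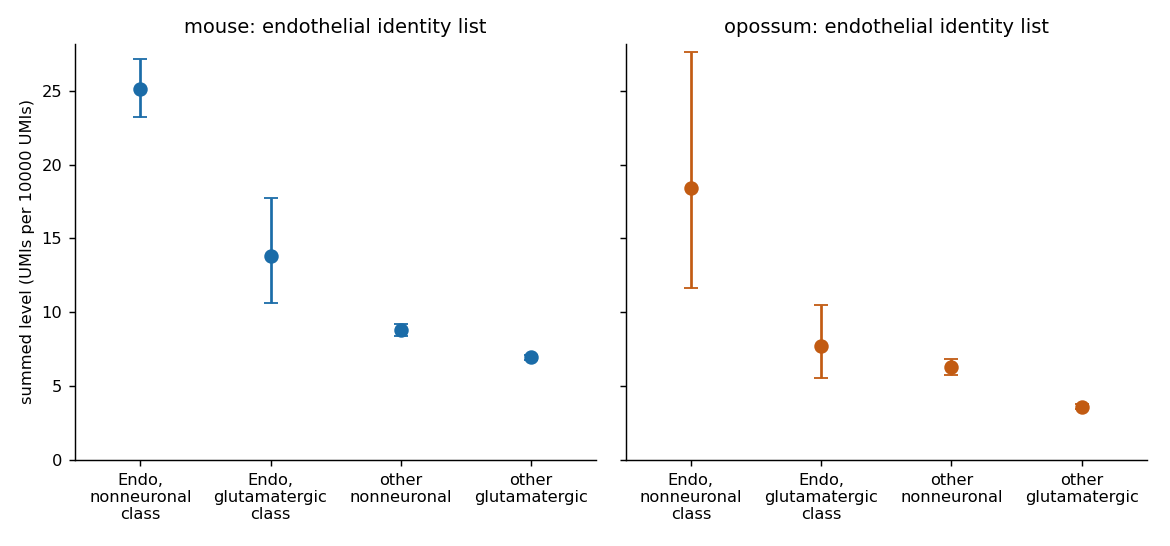
Summed level of the endothelial identity list, in UMIs per 10000 UMIs, in Endo cells of nonneuronal and of glutamatergic class and in the other cells of these classes, for the mouse (left) and the opossum (right). Points are levels over all V1 regions and bars are exact 95% Poisson intervals. In both species the Endo cells of nonneuronal class were highest, at 25.1 in the mouse and 18.4 in the opossum. In the opossum 4 of these 14 cells held 20 of their 23 UMIs of the list.

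The identity list stood higher in Endo cells of nonneuronal class than of glutamatergic class in both species, in the opossum through few cells. In the mouse it was 25.1 UMIs per 10000 (23.2 to 27.2) in Endo cells of nonneuronal class and 13.8 (10.6 to 17.7) in those of glutamatergic class, against 6.95 in other glutamatergic cells. In the opossum the 14 Endo cells of nonneuronal class held 23 of the list's UMIs, a level of 18.4 (11.7 to 27.6), which was 2.92 times that of other nonneuronal cells (1.83 to 4.42). The 50 opossum Endo cells of glutamatergic class stood at 7.74, which was 1.23 times the level of other nonneuronal cells (0.87 to 1.68) and 2.14 times that of other glutamatergic cells (1.54 to 2.91). The first of these intervals reached 1. Of the 23 UMIs in opossum Endo cells of nonneuronal class, 20 lay in 4 cells within 100 µm of the upper edge of the region. This 100 µm cut was not among the planned comparisons, and its intervals describe counting error only. Deeper down the 10 such cells stood at 3.14 (0.647 to 9.17) and the 39 of glutamatergic class at 6.59 (4.44 to 9.40).

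Markers were sparse per cell. In the mouse 84 of 255 Endo cells (32.9%) held at least 1 UMI of Flt1, Cldn5 or Pecam1, against 11.5% of other nonneuronal and 10.3% of glutamatergic cells, at median depths of 1156, 1261 and 1328 UMIs. After thinning every cell to 300 UMIs, which left out 10 Endo cells, 30 other nonneuronal and 69 glutamatergic cells, the shares were 13.9% (9.81 to 18.8), 3.56% and 3.10%. In the opossum 10 of 65 Endo cells (15.4%, 7.63 to 26.5) held a marker UMI, against 12.7% of other nonneuronal cells and 7.70% of glutamatergic cells, at median depths of 936, 1169 and 1346 UMIs. Thinned, the opossum shares were 3.17% (0.387 to 11), 4.65% and 2.54%, with 2, 18 and 126 cells left out. For these markers, opossum Endo cells thus did not exceed glutamatergic cells beyond counting error. Thinned shares with at least 1 UMI of the identity list were 19.0% (10.2 to 30.9), 15.7% and 10.0%, also with overlapping intervals. Without thinning, 13.8% of Endo cells held at least 3 UMIs of the list (6.53 to 24.7). This was above glutamatergic cells (5.05%, 4.37 to 5.81) but overlapped other nonneuronal cells (8.14%, 6.18 to 10.5). Of the 1200 mouse V1 cells with at least 3 UMIs of the identity list, 117 were Endo (9.75%), and of 277 such opossum cells 9 were Endo (3.25%). Among all V1 cells the Endo shares were 2.79% and 1.35%.

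The receptors and junction genes used as markers were measured unevenly. Flt1 encodes a VEGF receptor (chromosome 5, 147498414 to 147662826, minus strand, in the GRCm39 mouse genome). Its level in mouse Endo cells was 2.27, 1.45, 1.51 and 3.26 UMIs per 10000 in regions 1 to 4, against 0.367, 0.497, 0.610 and 0.555 in other nonneuronal cells. No region of one group reached the other, and over all regions 66 UMIs gave a level of 2.16 (1.67 to 2.75) and a fold of 4.52. Cldn5, the main claudin of brain endothelial tight junctions (chromosome 16, 18595597 to 18597012, plus strand), was at 2.51, 2.17, 2.14 and 1.95 against 0.528, 0.691, 0.610 and 0.772, a 3.64-fold difference over all regions. Endo cells again stood above other nonneuronal cells in each of the 4 regions. Pecam1, an adhesion molecule of endothelial contacts (chromosome 11, 106543689 to 106641454, minus strand), had 3 UMIs in mouse Endo cells and 18 in other nonneuronal cells, a ratio of 1.19, and the endothelial cadherin gene Cdh5 had 1 UMI in Endo cells, so a difference in either was not detectable at this depth. Opossum FLT1 had 10 UMIs in Endo cells, of which 6 lay in the 14 cells of nonneuronal class, and CLDN5 had 7, of which 3 lay there. The opossum table held no gene under the symbol PECAM1.

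Genes were compared across the table where their level over the whole library was at least 0.5 UMIs per 10000, and a gene was called higher at a fold of 2 or more and lower at 0.5 or less. In the mouse 16 of 4600 genes were called higher in Endo cells than in other nonneuronal cells (0.348%) and 87 lower (1.89%), with a median fold of 0.99 over all genes compared. In the opossum 260 of 4742 genes were called higher (5.48%) and 821 lower (17.3%), with a median fold of 0.96. The opossum Endo cells held 67970 UMIs in all, of which the 14 cells of nonneuronal class held 12506, and the mouse Endo cells 305872. The shares of genes called include counting error, which is larger with fewer UMIs, and they were not compared between species. Labels were assigned from the same UMIs, so all folds between Endo and other cells describe the labelled cells and test nothing. Most endothelial genes lay under this threshold, which 4 of the 40 mouse identity genes and 2 of the 23 opossum ones passed. List genes below it are named with their counts in what follows and were singled out after their values were seen.

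Identity genes of the mouse Endo cells covered surface receptors, transcription factors and membrane proteins. Of the 4 that passed the threshold (median fold 1.88), Cldn5 was called higher, while Epas1, a hypoxia-inducible transcription factor abundant in endothelium, had a fold of 1.93, Ramp2, a co-receptor for adrenomedullin, 1.82 and the surface sialomucin gene Cd34 1.19. At a lower threshold of 0.2 UMIs per 10000, 8 of 13 identity genes were called higher and none lower, with a median fold of 2.18, beside 136 of 8310 genes called higher (1.64%) and a median of 0.99. Several identity genes with high folds lay lower still. Adgrl4, an adhesion receptor of vessel sprouts, was at 0.566, 1.20, 0.756 and 3.26 UMIs per 10000 in the 4 regions of Endo cells and at 0.270, 0.138, 0.126 and 0.145 in other nonneuronal cells. Its lowest Endo region was above the highest of the other cells, and the fold was 6.45 from 38 UMIs. Ptprb, the phosphatase of endothelial receptors, had a fold of 7.60 from 32 UMIs and Adgrf5 6.21 from 27, each higher in 4 of 4 regions. The transcription factor genes Mecom, with 15 UMIs, and Sox17, with 10, were 8.91 and 17.8 times as high in Endo cells. The surface protein gene Ly6c1 had a fold of 2.87, Itm2a 3.19 and the flow-responsive factor Klf2 2.64, each higher in 4 of 4 regions.

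Transporters of the blood-brain barrier were higher as a group. The 25 genes summed to 26.9 UMIs per 10000 in mouse Endo cells and 17.6 in other nonneuronal cells, 1.53-fold (1.42 to 1.65), with folds from 1.38 to 1.73 over the 4 regions. Slc2a1, the glucose transporter of the barrier (chromosome 4, 118965908 to 118996365, plus strand), was at 1.94, 3.38, 2.65 and 0.814 UMIs per 10000 in Endo cells and 0.701, 0.774, 0.378 and 0.772 in others. The lowest Endo value, in region 4, was just above the highest of the others, and over all regions the fold was 3.19. Of the 9 transport genes above the threshold of 0.5, Slc2a1 was called higher and none lower, with a median fold of 1.35, beside 0.348% called higher and a median of 0.99 over all mouse genes. The rest included Slc6a6 for taurine (1.72), Slc39a10 for zinc (1.56), Slc7a5 and Slc3a2, the paired chains of the large neutral amino acid transporter (1.52 and 1.35), the transferrin receptor gene Tfrc (1.14) and Bsg, a chaperone of lactate transporters present in many cells (1.19). Below the threshold, the efflux pump gene Abcb1a had 47 UMIs in Endo cells and 47 in the other nonneuronal cells, which held 2179482 UMIs in all, for a fold of 7.13. Abcb1a was at 0.890, 2.41, 1.64 and 2.12 in the Endo cells of the 4 regions, all above the other cells (0.183, 0.166, 0.336 and 0.193). The efflux pumps Abcg2 and Abcc4 had folds of 5.18 and 5.43 and the organic anion transporter Slco1a4 had 4.18. Mfsd2a, the lipid transporter that holds back vesicle traffic, had 5 UMIs in Endo cells and a fold of 0.76.

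**Figure D2:**
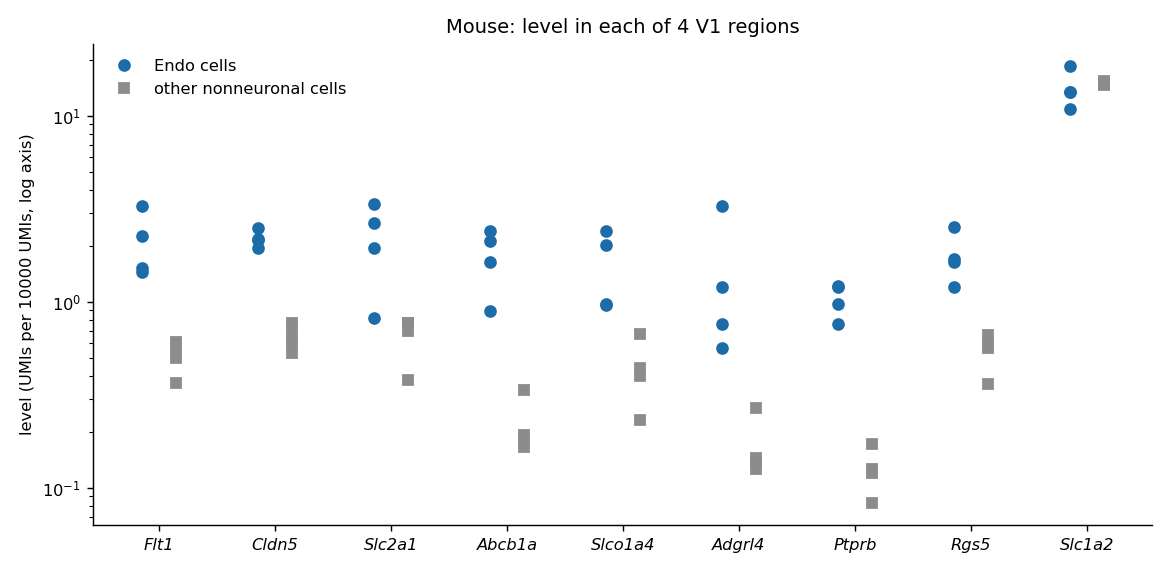
Level of 9 genes in mouse Endo cells (circles) and in other nonneuronal cells (squares), in UMIs per 10000 UMIs on a log axis, with 1 point for each of the 4 V1 regions. For Flt1, Cldn5, Slc2a1, Abcb1a, Slco1a4, Adgrl4, Ptprb and Rgs5 every circle lies above every square, and for the astrocyte gene Slc1a2 they overlap (10.8 to 18.6 against 14.7 to 15.4).

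Junction and signalling genes had lower summed folds than the identity list. The 16 junction genes had a summed fold of 1.72 (1.48 to 1.98) in the mouse, of which Cldn5 was the called member among 3 compared (median 1.32, beside the same 0.348% and 0.99), beside Tjp1, a scaffold of tight junctions, at 1.32 and Afdn at 0.92. Esam, an endothelial adhesion molecule, had 23 UMIs in Endo cells and a fold of 8.19, and Cgnl1, a junction plaque protein, 9 UMIs and 5.83. VEGF, angiopoietin and Notch genes summed to 1.53-fold (1.35 to 1.74), including Flt1, with Bmpr2 at 1.24 and the sphingosine-1-phosphate receptor gene S1pr1 at 1.48 as the 2 members above the threshold. Kdr, the main VEGF receptor of endothelium, had 6 UMIs in Endo cells with a fold of 2.51, and the endothelial receptors Tie1 and Eng had 5 and 9 with folds of 4.45 and 3.56. Wnt signalling genes summed to 1.07-fold (0.91 to 1.25), with Ctnnb1 at 1.08 as the member compared. Basement membrane genes summed to 1.07-fold (0.96 to 1.19), in which the laminin receptor gene Dag1 was called lower at 0.36 and Agrn and Sparc had folds of 1.64 and 1.34. The fibronectin gene Fn1 had 14 UMIs in Endo cells and a fold of 3.22. Arterial genes summed to 1.35-fold (0.96 to 1.87) and venous genes to 1.76-fold (1.22 to 2.49), from 45 and 41 UMIs, with overlapping intervals.

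Markers of the cells around capillaries were present as well. The 19 pericyte and smooth muscle genes summed to 4.38 UMIs per 10000 in mouse Endo cells and 1.84 in other nonneuronal cells, 2.39-fold (1.95 to 2.91). Rgs5, a regulator of G protein signalling in pericytes, was at 1.70, 1.21, 2.52 and 1.63 in the 4 regions against 0.593, 0.663, 0.568 and 0.362, a fold of 3.30. The pericyte receptor gene Pdgfrb had 14 UMIs and a fold of 2.27, and Vtn, which pericytes secrete, had 16 UMIs and 2.28, both higher in 4 of 4 regions. A pericyte UMI was found in 62 of 217 mouse Endo cells with an identity UMI (28.6%, 22.7 to 35.1) and in 13 of 38 without one (34.2%, 19.6 to 51.4), against 17.0% of other nonneuronal cells, with overlapping intervals in the former pair. Hemoglobin gene Hbb-bt of red blood cells had 13 UMIs in Endo cells and a fold of 4.21, in 4 of 4 regions, while the 7 red blood cell genes summed to 1.25-fold (0.92 to 1.67). Genes of vascular and leptomeningeal fibroblasts summed to 0.84-fold (0.69 to 1.01). In the opossum a pericyte UMI was found in 11 of 22 Endo cells with an identity UMI (50%, 28.2 to 71.8). Of those without an identity UMI, 9 of 43 held one (20.9%, 10.0 to 36.0), with overlapping intervals, against 23.2% of other nonneuronal cells.

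Genes of neurons and glia were measured in mouse Endo cells too. The neuronal list stood at 164 UMIs per 10000 in Endo cells and 161 in other nonneuronal cells (1.02-fold, 0.99 to 1.05), with the synaptic gene Snap25 at 24.2 and 23.6. Astrocyte genes summed to 0.85-fold (0.80 to 0.91), oligodendrocyte genes to 0.65 (0.61 to 0.69), precursor genes to 0.79 (0.68 to 0.91) and microglial genes to 0.83 (0.70 to 0.99). In those lists 1 of 10 astrocyte and 2 of 10 oligodendrocyte genes compared were called lower and none higher, beside 1.89% and 0.348% over all mouse genes: Gpc5, a glypican of astrocytes, at 0.25, and the myelin genes Mog and Mag at 0.37 and 0.38. The part of neighboring cells in these levels was not tested.

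By the rule for named genes, the mouse genes with the highest folds among those compared included Cldn5, Rgs5, Slc2a1, Cntn3 (2.87), Igf1r (2.36), Tmem234 (2.21), Ccdc85a (2.20), Ptprg (2.08), Hif1a (2.08), Zfp354c (2.08), Vps16 (1.98), Unc5a (1.97), Stub1 (1.95) and Epas1. Igf1r is the receptor for insulin-like growth factor 1 and Hif1a encodes, like Epas1, an oxygen-regulated alpha subunit of the hypoxia-inducible factors. Igf1r was at 2.75, 1.21, 1.64 and 0.977 UMIs per 10000 in Endo cells of the 4 regions and at 0.676 to 0.883 in other nonneuronal cells, without overlap. The neuronal adhesion gene Cntn3 was as high in glutamatergic cells (0.987) as in Endo cells (1.01) and lower in other nonneuronal cells (0.353). The lowest included Brinp2 (0.21), the glial adhesion gene Hepacam (0.21), Kdsr (0.21), Rhot1 (0.23), Gpc5 (0.25), Dnajc1 (0.26), Daam1 (0.29), Zswim6 (0.30) and Npas3 (0.30), each lower in every region. For Brinp2 the fold rested on 3 UMIs in Endo cells.

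**Figure D3:**
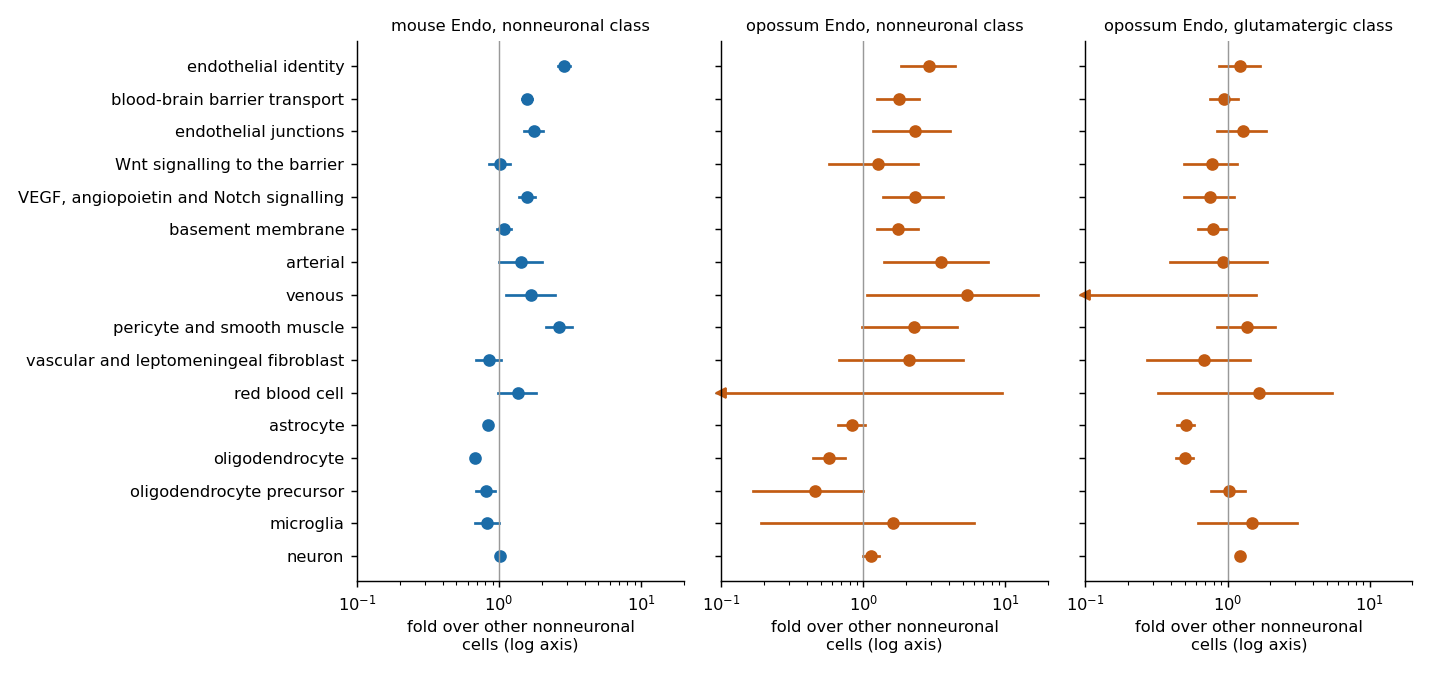
Fold of the summed level of each gene list over other nonneuronal cells, on a log axis, with exact 95% intervals from counts, for mouse Endo cells of nonneuronal class (left), opossum Endo cells of nonneuronal class (middle) and opossum Endo cells of glutamatergic class (right). Arrows at the left edge mark lists with no UMI. The identity, transport, junction and VEGF lists have intervals above 1 in the left and middle panels, and in the right panel the neuron list alone does (1.15 to 1.30).

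Within the mouse label, the strength of the signal moved with the labelling round and the finer type. The identity list stood at 33.8 UMIs per 10000 (29.7 to 38.3) in the 58 cells of round 1, 31.7 (27.4 to 36.6) in the 54 of round 2 and 16.1 (14.3 to 18.1) in the 143 of round 3. In cells of nonneuronal class, Adgrl4 had a fold of 11.9 in rounds 1 and 2 and 3.29 in round 3, Cldn5 5.91 and 2.05, and Abcb1a 8.84 and 4.41, while Flt1 (5.27 and 4.48) and Rgs5 (3.43 and 3.71) differed little. Red blood cell genes were at 1.93-fold (1.33 to 2.72) in rounds 1 and 2 and 0.76 (0.41 to 1.29) in round 3. The type label Endo was given to 116 of the 255 cells, whose identity level was 30.3 (27.5 to 33.2). Another 67 had a different type, most often Micro (30 cells) and L4_B (20 cells), with a level of 15.8 (13.2 to 18.8), and 72 had none, with 18.3 (15.4 to 21.5). Conversely 45 cells with the type Endo had another subclass or none, 18 of them L6CT, at 19.4 (16.2 to 23.0). All these groups stood above the level of other nonneuronal cells, 8.78.

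In the opossum the genes of the Endo cells went only in part with the label. Over all 65 cells, pericyte and smooth muscle genes summed to 1.68-fold (1.12 to 2.44) and junction genes to 1.44-fold (1.02 to 2.00) of other nonneuronal cells, beside 1.54 for the identity list, while transport genes were at 1.10 (0.91 to 1.33), VEGF, angiopoietin and Notch genes at 1.03 (0.74 to 1.39) and basement membrane genes at 0.96 (0.78 to 1.16). The 15 highest genes by the same rule were TCP11L1 (4.97), ENSMODG00000007235 (3.70), SYT13 (3.70), PHF24 (3.17), ARHGAP20 (3.11), FNDC5 (3.11), ABTB1 (3.08), SH3BGRL (3.04), PSEN2 (2.97), ENSMODG00000017421 (2.97), TSPAN17 (2.95), MLLT1 (2.81), KPNA5 (2.79), ENSMODG00000028980 (2.76) and MRPL40 (2.75), of which SYT13 encodes a synaptotagmin. Genes of the vascular lists were 24 of the 4742 compared (0.506%), and 1 of the 24 was called higher, beside 5.48% over all genes, so the highest genes say little about these lists. Neuronal genes summed to 1.20-fold (1.14 to 1.27), with the postsynaptic gene NRGN at 1.24 and OLFM1 at 1.36. Astrocyte genes summed to 0.56-fold (0.50 to 0.63), with 6 of 10 called lower, among them the glutamate transporter gene SLC1A2 at 0.18 and the water channel gene AQP4 at 0.25, and oligodendrocyte genes to 0.51-fold (0.45 to 0.57), with 7 of 8 called lower. These shares of called genes stand beside 17.3% over all opossum genes. Most opossum Endo cells had the glutamatergic class but were set here against cells of nonneuronal class. Over other glutamatergic cells, Endo cells of glutamatergic class stood at 1.18 (1.03 to 1.35) for astrocyte and 1.08 (0.95 to 1.24) for oligodendrocyte genes. For these lists, Endo cells of nonneuronal class stood at 0.83 (0.66 to 1.03) and 0.58 (0.44 to 0.74) over other nonneuronal cells. Both lists were below 1 in mouse Endo cells, mostly of nonneuronal class. SLC1A2 was also among the 10 lowest, with ENSMODG00000018053 (0.06), CSRP1 (0.08), SOX8 (0.08), ERBB4 (0.15), CNDP1 (0.16), MRPL55 (0.16), ENSMODG00000002685 (0.18), PRR16 (0.18) and PTPRM (0.19).

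Between the 2 main classes of opossum Endo cells the vascular genes were split. Of 83 vascular list genes with a UMI in Endo cells, 47 had a higher level in the 14 cells of nonneuronal class and 36 in the 50 of glutamatergic class, where a single UMI in the 14 cells is a level of 0.800. For the identity list these counts were 12 and 5, for basement membrane 9 and 1, for transport 6 and 10 and for Wnt signalling 1 and 8. Of the 36 genes, 30 had no UMI in the 14 cells, among them 8 of the 10 for transport and all 8 for Wnt signalling. The 14 cells held 12506 UMIs in all and the 50 held 54259, so a gene with few UMIs often had none in the 14. SLC2A1 had 15 UMIs in the 14 cells, 12.0 UMIs per 10000 (6.71 to 19.8), against 2.41 in other nonneuronal cells, and 2.03 (1.01 to 3.63) in Endo cells of glutamatergic class. FLT1 was at 4.80 (1.76 to 10.4) and 0.737 (0.201 to 1.89) in these groups, and COL4A1, a collagen of the vascular basement membrane, at 6.40 (2.76 to 12.6) and 0.922 (0.299 to 2.15). For SLC2A1 and COL4A1 the intervals of the groups did not overlap. NRP2, a VEGF co-receptor, had 4 of its 5 UMIs and ESAM 3 of its 6 in the 14 cells. Other genes had most of their UMIs in Endo cells of glutamatergic class. The insulin receptor gene INSR had all 11 there, 10 of them in region 2. The tight junction scaffold gene TJP1 had all 8 and ID1, a target of bone morphogenetic protein signals, 11 of 12. For each of these the intervals of the groups overlapped. They were 0 to 2.95 in the 14 cells, against 1.01 to 3.63 for INSR and 0.64 to 2.91 for TJP1. RGS5 had 13 of its 16 UMIs in Endo cells of glutamatergic class, at 2.40 (1.28 to 4.10), against 0.614 in other glutamatergic cells and 1.23 in other nonneuronal cells. Summed over lists, the 14 cells had folds over other nonneuronal cells of 1.79 for transport (1.25 to 2.48), 2.30 for junctions (1.18 to 4.06), 2.31 for VEGF, angiopoietin and Notch genes (1.38 to 3.63) and 1.76 for basement membrane (1.24 to 2.43), whereas in the 50 cells of glutamatergic class these were 0.95 (0.75 to 1.18), 1.28 (0.84 to 1.87), 0.76 (0.49 to 1.11) and 0.79 (0.62 to 1.00). Over other cells of glutamatergic class these 50 cells stood at 1.16 (0.92 to 1.43), 1.54 (1.03 to 2.22), 1.01 (0.66 to 1.47) and 1.27 (1.00 to 1.60), and at 2.13 (1.32 to 3.28) for pericyte and smooth muscle genes. At the threshold of 0.2 UMIs per 10000, 6 of 10 opossum identity genes were called higher in all Endo cells, with a median fold of 2.07, beside 770 of 8268 genes (9.31%) and a median of 0.91.

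Cells outside the V1 regions, which had no part in the labels, gave a second set of vascular genes. Among cells with at least 50 genes and 100 UMIs, 1522 opossum cells had 2 or more UMIs of FLT1 and CLDN5 and were compared with 73009 others, without the marker UMIs. In them the rest of the identity list was 2.54-fold higher (2.44 to 2.65), ESAM 4.13, COL4A1 3.88, RGS5 3.05 and SLC2A1 3.03. Of the 4741 genes at a level of 0.5 or more, 13 were at least 2-fold higher there (0.274%), and of the 260 genes called higher in opossum Endo cells 2 were (0.769%). In the mouse 3874 positive cells were compared with 107007 others. The identity list was 1.5-fold higher (1.46 to 1.55), none of 4599 genes reached a fold of 2 (0%), and hence none of the 15 genes called higher in V1 besides Cldn5 did. Their median fold was 1.07, against 0.99 over all genes, with Rgs5 at 1.46 and Epas1 at 1.61. Among rarer genes of these mouse cells, Vwf, the clotting factor of endothelial granules, had a fold of 2.52 and Ly6c1 2.17.

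When the vascular genes were taken from those cells, the 14 opossum cells differed among themselves. In the opossum 262 genes with a section level of at least 0.05 and 20 UMIs were 2-fold higher or more in the marker-positive cells outside V1, 14 of them among the 19 identity genes that could be. This set was defined after the data were seen. It also held the pericyte genes RGS5 and PDGFRB and the collagen genes COL1A1 and COL3A1, so the set was not endothelial alone. In V1 its level was 3.27 times that of other nonneuronal cells in Endo cells of nonneuronal class (2.87 to 3.71) and 1.05 times in Endo cells of glutamatergic class (0.94 to 1.17), where it was 1.92 times that of other glutamatergic cells (1.72 to 2.13). Of the 14 cells, 5 held UMIs of the identity list: 8, 6, 5, 3 and 1 UMIs. The identity genes were then left out of the set, so that 248 remained. Its level in these 5 cells was 8.31 times that of other nonneuronal cells (7.14 to 9.62). In the 9 cells without identity UMIs it was 1.08 times (0.82 to 1.41). The 5 cells were picked by their identity UMIs, but the other nonneuronal cells were not, and 285 of these 663 held at least 1. These folds thus describe picked cells and are not a test. Their intervals cover counting error only, while the 5 cells ranged from 205 to 747 in the level of the full set. The 5 cells were in regions 1 and 2. Of them, 4 lay at 1.25, 47.8, 49.1 and 64.2 µm from the upper edge of the region, with the other at 584 µm. Within 100 µm of that edge, other nonneuronal cells also stood higher for the full set. They were at a level of 109 (101 to 117), against 57.5 (55.8 to 59.2) deeper down. The 4 Endo cells of nonneuronal class near the edge stood at 610 (524 to 706).

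That edge was drawn by the authors at the top of layer 2/3, so layer 1 and the pial surface lay outside the regions. In the opossum, within 100 µm of it the identity list stood at 67.8 UMIs per 10000 (41.4 to 105) in the 4 Endo cells of nonneuronal class, at 13.8 (7.12 to 24.1) in 11 Endo cells of glutamatergic class and at 13.5 (10.97 to 16.5) in 75 other nonneuronal cells, against 5.64 (5.13 to 6.20) in other nonneuronal cells deeper down. Deeper than 100 µm the 10 Endo cells of nonneuronal class held 3 UMIs of the list, 3.14 (0.647 to 9.17), and the 39 of glutamatergic class 6.59 (4.44 to 9.40), neither above the other nonneuronal cells beyond counting error, while other glutamatergic cells there stood lower, at 3.56 (3.39 to 3.74). In the mouse the same comparison gave 22.7 (17.1 to 29.7) within 100 µm and 25.4 (23.4 to 27.5) deeper in Endo cells of nonneuronal class, against 11.9 (10.2 to 13.7) and 8.54 (8.14 to 8.95) in other nonneuronal cells. Mouse Endo cells carried more of the list at all depths, with folds over other nonneuronal cells of 2.49, 2.59 and 2.79 in the upper, middle and lower parts of equal height. The opossum Endo cells are described here by their label.

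Endo cells were spread through the depth of the mouse cortex. Of the 255, 89 lay in the upper, 81 in the middle and 85 in the lower part, which was 2.70% (2.17 to 3.31), 2.82% (2.24 to 3.49) and 2.88% (2.31 to 3.55) of the V1 cells there. The median scaled depth was 418 µm, with the middle 50% of cells from 154 to 568 µm, close to that of OPC (431 µm) and Micro (387 µm) and shallower than OD (636 µm). The medians of the 4 regions were 320, 440, 359 and 521 µm. In the opossum the median was 357 µm, with the middle 50% from 111 to 445 µm, against 353 µm for OPC, 381 µm for Astro and 536 µm for OD. Regional medians were 375, 394 and 294 µm. The opossum Endo share was 1.59% (1.03 to 2.33) in the upper, 1.55% (1.03 to 2.25) in the middle and 0.872% (0.465 to 1.49) in the lower part, with overlapping intervals.

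**Figure D4:**
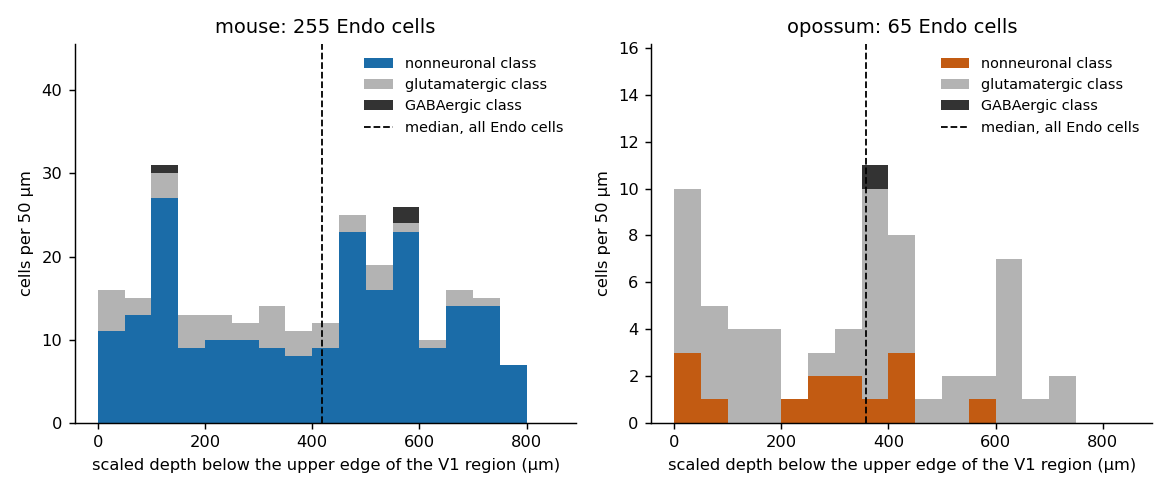
Scaled depth of Endo cells below the upper edge of the V1 region, in cells per 50 µm, for the mouse (left) and the opossum (right), stacked by the class label, with the median of all Endo cells as a dashed line. Mouse Endo cells of nonneuronal class fill all depths, and opossum Endo cells of nonneuronal class are 4 within 100 µm and 10 deeper.

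The share of Endo among V1 cells was 2.79% (2.47 to 3.15) in the mouse and 1.35% (1.05 to 1.72) in the opossum. It was 3.01%, 2.29%, 3.25% and 2.39% in the mouse regions and 1.51%, 1.38% and 1.07% in the opossum regions. These point values did not overlap between species, but counting intervals of some regions did. They were 1.61 to 3.15 in mouse region 2 and 1.01 to 2.17 in opossum region 1. The study took no cell densities from these data because of transcript dropout, and these shares are shares of labels. In mouse V1 the Endo cells held 2.44% of all UMIs and 7.35% (6.84 to 7.89) of the UMIs of the identity list, which is 714 of 9716 UMIs. In the opossum the values were 0.980% and 2.34% (1.81 to 2.97).

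The identity list in other cells fell with distance from Endo cells. In the mouse the identity list stood at 14.1 UMIs per 10000 (11.3 to 17.3) in 88 cells that were not labelled Endo and lay within 10 µm of an Endo cell, center to center. It was 8.61 (8.08 to 9.15) from 10 to 20 µm, 7.51 from 20 to 40 µm, 7.12 from 40 to 80 µm and 6.92 (6.58 to 7.28) beyond 80 µm. In neurons alone the nearest and farthest values were 11.7 (8.66 to 15.4) and 6.57 (6.19 to 6.96). The cells within 10 µm were small, with a median of 621 UMIs against 1345.5 beyond 80 µm. In the opossum the level was 22.7 (13.0 to 36.9) in 12 cells within 10 µm, 6.10 (5.12 to 7.20) from 10 to 20 µm and 3.62 (3.43 to 3.82) beyond 80 µm. These 12 cells had a median of 394 UMIs. In opossum neurons alone it was 10.5 (3.40 to 24.5) in 7 cells within 10 µm and 3.28 (3.09 to 3.48) beyond 80 µm, with overlapping intervals. In all cells not labelled Endo, the level fell with distance from opossum Endo cells of glutamatergic class too. It was 5.77 (4.73 to 6.98) from 10 to 20 µm and 3.70 beyond 80 µm, and 9.64 (6.97 to 13.0) and 3.85 around those of nonneuronal class.

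**Figure D5:**
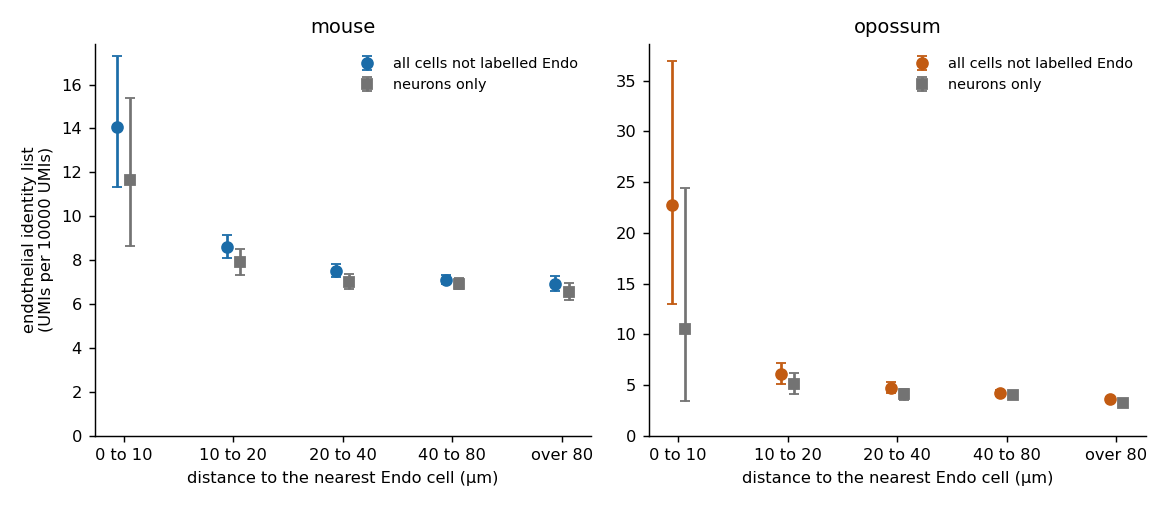
Level of the endothelial identity list, in UMIs per 10000 UMIs, in V1 cells not labelled Endo (circles) and in neurons among them (squares), by distance to the nearest Endo cell in µm, for the mouse (left) and the opossum (right). Bars are exact 95% Poisson intervals, and in both species the level within 10 µm is the highest and falls toward that of cells over 80 µm away. For opossum neurons the intervals of the nearest and farthest groups overlap.

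Endo cells also lay beside each other. Another Endo cell was within 25 µm of 71 of 255 mouse Endo cells (27.8%), while 17.5% of the other V1 cells had an Endo cell within that distance, a ratio of 1.59. The same ratio was 1.64 for Micro and 1.37 for OPC, so closeness of this degree was not particular to Endo. In the opossum 14 of 65 Endo cells had another within 25 µm (21.5%), against 6.24% of other cells, a ratio of 3.45, with 4.49 for Micro and 1.25 for OPC. The Micro value rested on 4 of 32 cells. Within 50 µm the opossum ratios were 1.83 for Endo, 1.15 for Micro, 1.18 for OPC, 1.14 for Astro and 1.27 for OD. Among mouse Endo cells the 212 of nonneuronal class had a neighbor of the same kind within 50 µm in 57.1% of cases, against 44.7% of cells not labelled Endo, whereas of the 40 of glutamatergic class 4 did (10.0%), against 13.3%.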

How the data were processed

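The authors deposited UMI counts per gene and segmented cell, without normalization, from 1 Stereo-seq library per species. Per their methods the counts were made with the Stereo-seq Analysis Workflow, mouse reads were aligned to GRCm39 and opossum reads to their own assembly annotation, in which gene 3′ ends were lengthened, and cells with fewer than 50 genes or 100 UMIs were removed. The submitters' processing notes also name Cell Ranger. Labels came from the 50 nearest atlas cells over 3 rounds. Class, subclass and type labels and positions, of which 2 units make 1 µm, were used as deposited. Members and gene lists were chosen with earlier results of these data known, and the lists share genes.

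Counts were summed over cells and given as UMIs per 10000 UMIs with exact Poisson intervals, shares with exact Clopper-Pearson intervals and folds with the interval of a ratio of counts, all at 95%, with Python 3.11.15, numpy 2.4.6, scipy 1.17.1 and pandas 2.3.3. Plots were drawn with matplotlib 3.10.9. The main comparison was between Endo cells and other cells of nonneuronal class. Named genes were list genes at a library level of at least 0.5, and in each species the 15 highest and 10 lowest folds with at least 10 UMIs observed or expected in Endo cells and 1 direction in every region with at least 5 Endo cells. Depth was measured along the smallest rectangle around a region and scaled to the tallest region, with the side of the upper layer neurons as the top. Thinning drew 300 UMIs from each cell. Doublets were not called. Gene positions are from GENCODE on GRCm39. The fold computation was tested on simulated data. The opossum library held 84570416 UMIs and the mouse library 147861707. Some items that the rule names are not reported here.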

Additional observations from a re-analysis of the deposited data

How the results depend on the processing

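Counts of genes moved with the threshold on low levels. In the opossum the 260 genes higher became 770 at 0.2 UMIs per 10000, 60 at 1, 700 with Endo cells of nonneuronal class only and 301 to 427 without 1 region, and the 821 lower became 2061, 257 and 2009 under the first 3 of these. The counts of 700 and 2009 rested on 14 cells with 12506 UMIs. In the mouse the 16 higher became 136, 1, 44 with a mean over cells and 25 to 44 without 1 region, and the 87 lower became 459, 10 and 104 to 209 without 1 region. The identity fold in the opossum (1.54) was 2.92 in the nonneuronal class and 1.06 (0.565 to 1.84) with cells thinned to 300 UMIs. In the mouse (2.66) it was 3.85 in cells of labelling round 1, 2.41 thinned and, added after seeing the data, 1.58 in the glutamatergic class. The opossum median depth was 300.5 µm in the nonneuronal class. The opossum ratio of the identity level within 20 µm over beyond 80 µm, 1.82, was 1.47 to 1.99 without 1 region, lowest without region 2. With at least 3 marker UMIs outside V1, 4 of 260 opossum genes were past the fold (1.54%), beside 30 of 4741 genes (0.633%). In the mouse 1 of 15 was (6.67%), beside 1 of 4599 (0.0217%). The causes were not tested. No opossum Endo cell was labelled in round 1, so that setting gave no value there. No paired analysis was possible because each species had 1 sample. Low UMI counts per cell limit all values.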
